A study of Mus musculus with 9 samples.

Results

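Polycomb genes and genes for enzymes that modify histones or DNA were examined for accessible chromatin in the early mouse heart field. The 44 genes were chosen by symbol, and a region counted for a gene when the list of accessible regions assigned it to that symbol. Of the 44, 31 had at least 1 assigned region and 13 had none. The 31 genes held 46 of the 17164 distinct regions in the list, and the list named 11541 genes.

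Open chromatin was mapped with ATAC-Seq, an assay that uses Tn5 transposase to cut exposed DNA and add sequencing adapters to it. Pharyngeal mesoderm and hearts were dissected from mouse embryos at embryonic day 8.75, with 6 somites, and the 9 libraries comprised 3 of the wild-type (wt) control genotype, 3 of Isl1-/- embryos and 3 of Isl1Cre+/-/ Brg1fl/fl embryos, in which Cre from the Isl1 locus deletes floxed Brg1 in cells that express Isl1. The values used here were 1 list of regions common to the 3 control libraries, given in mm9 coordinates with a gene for each region and how far that gene's start was. Peak heights, scores and values of single libraries were not part of the list, its depth is unknown, and the 2 mutant genotypes were not analysed here. No value below therefore has a replicate error, and no comparison between genotypes was made.

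The list came from whole tissue, so a region can come from any of the dissected cell types. Among marker genes, 4 of 5 of the second heart field and pharyngeal mesoderm had assigned regions (19 regions in all, 9 of them at Isl1), with none at Tbx1. Of 7 heart muscle markers, 2 had regions (Gata4 and Tbx20), and Nkx2-5, Tbx5, Tnnt2, Myh6 and Actc1 had none. All 3 endothelial markers had regions (6 in all), as did all 3 neural markers (7 in all) and 1 of 4 blood markers (Klf1). The part of each cell type in the regions described here was not tested.

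Polycomb group proteins keep developmental genes silent. Polycomb repressive complex 2 (PRC2) methylates histone H3, and Polycomb repressive complex 1 (PRC1) reads that mark through its CBX subunits and ubiquitylates histone H2A through its RING subunits. Demethylases of the KDM6 family remove the PRC2 mark, acetyltransferases and deacetylases set histone acetylation, and DNA methyltransferases and TET dioxygenases add and oxidize the methyl group on cytosine. Several of these enzymes are needed for heart formation in mice.

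Members had an assigned region more often than coding genes at large. The share was 70.5% of the 44 members, compared with 49.3% of the 21031 coding genes that have a curated transcript in RefSeq. With predicted and receptor genes left out, the share of coding genes was 54.5%. A region with its center within 1 kb of the assigned start was listed for 26 members (59.1%), compared with 40.6% of coding genes. Regions beyond 1 kb of the assigned start were listed for 12 members (27.3%, compared with 18.7% of coding genes), and regions beyond 10 kb for 8 members (18.2%, compared with 15.2%). For Jarid2, Phf19 and Pcgf5, the only region beyond 1 kb covered another annotated start of the gene. Beyond 1 kb of every annotated start, 9 members had a region, and the share of coding genes was not counted that way. The starts of members and of coding genes differed in CpG content, as given below. Members were also longer genes, with a median length of 42174.5 bp compared with 17496.5 bp for coding genes. No test was made of these shares. Members that had a region held 1.48 regions each on average, close to the 1.49 of all genes in the list. A single region was listed for 22 members, 2 regions for 6 members and 3 or more for 3 members, which is 6.82% of members beside 4.96% of coding genes.

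**Figure D1:**
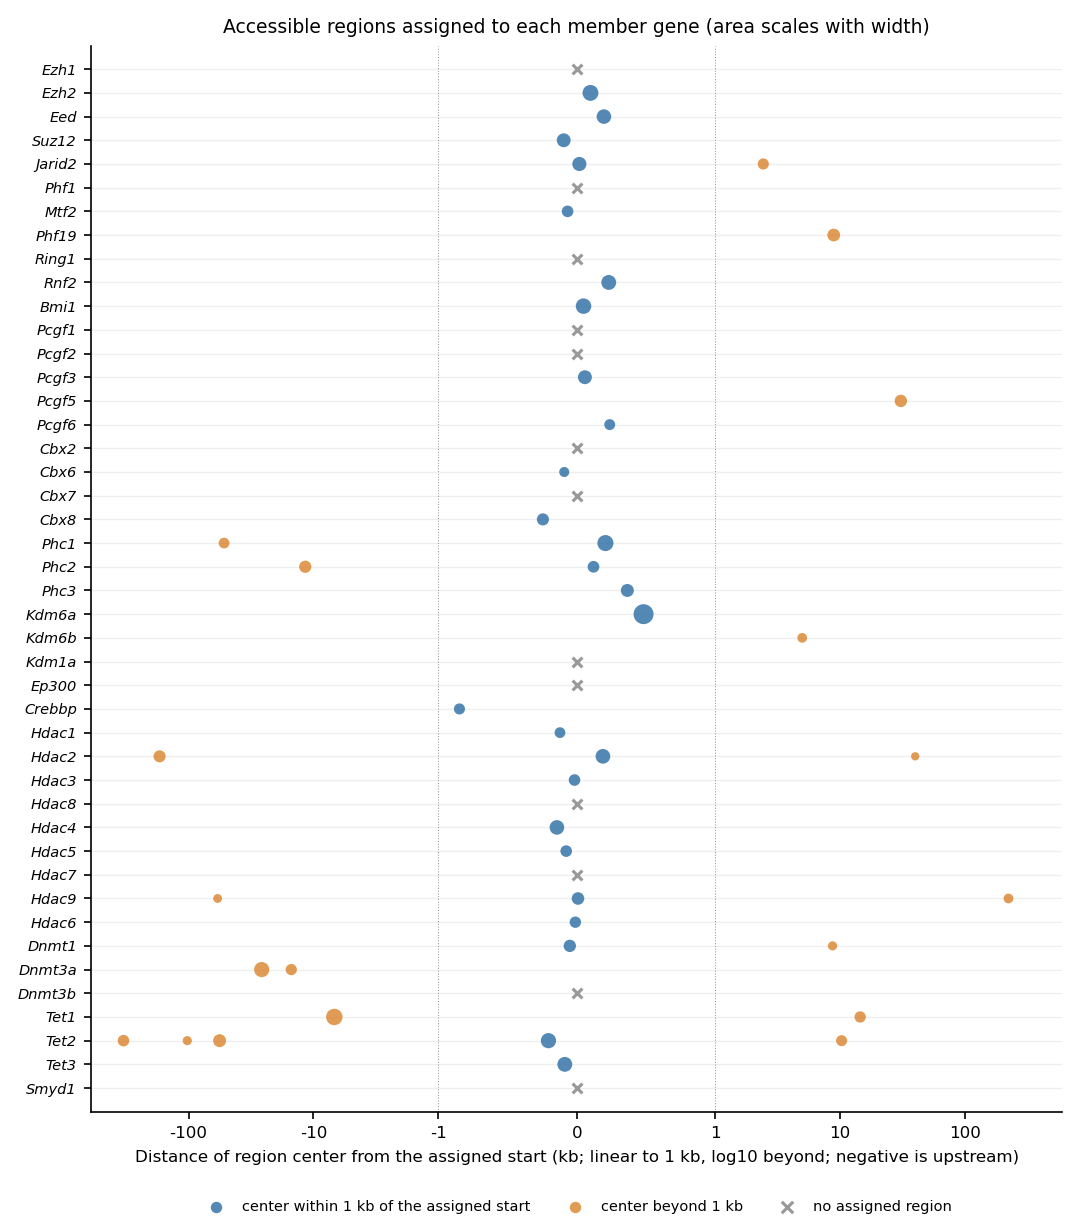
Distance in kb from the assigned start to the center of 45 of the 46 member regions (1 region of Tet2 is left out), 1 row per gene in order of role, with blue points for centers within 1 kb, orange points for centers beyond 1 kb, and crosses for the 13 members without a region. The blue points form a column at the start in 26 rows, and the orange points spread farthest for Tet2, Hdac2 and Hdac9. Each distance is from the start listed for that region, and the regions of Phc2, like those of Jarid2, are measured from different starts.

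The enzymatic core of PRC2 was accessible at its starts for 3 of 4 genes, each with 1 region. Ezh2, the main methyltransferase of the complex, had a region of 2044 bp with its center 99 bp downstream of the start. Eed, which binds the methyl mark and stimulates the enzyme, had a region of 1708 bp, and Suz12, which holds the complex together, had a region of 1551 bp, centered 196 bp downstream and 94 bp upstream of their starts. Ezh1, the alternative methyltransferase, had none. The Ezh2 region, at chr6:47543909-47545952, was wider than 91.1% of all regions within 1 kb of a start. It covered an annotated start of the gene, which lies on the minus strand, and no start of another gene was inside it.

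Of the 4 accessory subunits of PRC2, Jarid2, Mtf2 and Phf19 had regions and Phf1 had none. Jarid2, which recruits PRC2 and is required for heart development, had a region of 1613 bp at the assigned start. A further region of 1006 bp was listed 2421 bp downstream, but by the coordinates from a different start position than the first. That further region covered another annotated start of the same gene. Mtf2, a Polycomb-like protein that binds CpG-rich DNA, had a region of 1094 bp, 66 bp upstream of its start. Phf19, a related protein, had its region of 1318 bp at 8887 bp from the assigned start, and that region also covered an annotated start of Phf19 in GENCODE, 182 bp from its center. Thus 6 of the 8 PRC2 genes had a region that covered an annotated start of their own. All 8 had a CpG frequency at the start above the median of coding genes. Among coding genes above that median, 73.2% had a region within 1 kb of an annotated start, and no test was made.

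Among the 15 PRC1 genes, 10 had regions, beside 49.3% of coding genes. The same number, 10 of 15, had a region within 1 kb of an annotated start of their own. All 15 had a CpG frequency at the start above the coding median, and 73.2% of such coding genes had a region there. Rnf2, the main E3 ligase of the complex, had a region of 1787 bp, 231 bp downstream of its start, and its paralog Ring1 had none. Of the 6 PCGF subunits, which define the variants of PRC1, 4 had regions. Bmi1 had a region of 1945 bp, wider than 88.6% of regions within 1 kb of a start, and its 12.54 CpG dinucleotides per 100 bp were the highest value among the member regions. Pcgf3 and Pcgf6 had regions of 1564 and 966 bp at their starts. Pcgf5 had no region at its assigned start, and its region of 1246 bp (chr19:36483591-36484836) lay 30656 bp downstream of it, with its center 25 bp from a second annotated start of the gene. Pcgf1 and Pcgf2 had none.

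The CBX subunits bind methylated histone H3. Cbx6 and Cbx8 had regions of 821 and 1186 bp at their starts, and Cbx2 and Cbx7 had none. The Cbx6 region was among the narrowest, wider than 3.99% of regions within 1 kb of a start, and it also held the start of Npcd, so the assignment to Cbx6 alone cannot be taken from position. All 3 polyhomeotic genes, whose products polymerize and cluster PRC1, had a region at the start. Their widths were 2088 bp for Phc1, 1107 bp for Phc2 and 1363 bp for Phc3. Phc1 had a further region of 937 bp, 51937 bp upstream of its start (chr6:122341714-122342650), in an exon of 1700063H04Rik and within 1 kb of a start of that gene. Phc2 had a further region of 1210 bp in an intron of the gene (chr4:128392605-128393814). By the coordinates it lay downstream of the first Phc2 region, but it was listed 11606 bp upstream of a different assigned start. It lay 5801 bp downstream of the nearest Phc2 start in GENCODE.

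The widest member region belonged to a demethylase gene. Kdm6a, on chromosome X, encodes a demethylase that removes the PRC2 mark, and its region of 3214 bp (chrX:17738577-17741790) was centered 482 bp downstream of the start and wider than 99.5% of all regions within 1 kb of a start. Its relative Kdm6b had no region at a start. A region of 765 bp was listed 4968 bp downstream of the assigned Kdm6b start, in an exon of the gene and 4492 bp upstream of the nearest start in GENCODE. Kdm1a, the demethylase of the CoREST complex, had no region. Of the related coactivators with acetyltransferase activity, Crebbp had a region of 993 bp centered 846 bp upstream of its start, which did not reach the start, and Ep300 had none.

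A region 2000 bp or wider was listed for 4 members (9.09%), compared with 4.81% of coding genes. Those at a start belonged to Kdm6a, Phc1 and Ezh2, and the fourth belonged to Tet1 and lay away from the assigned start. The sequences of the 3 start regions are given because these were the widest member regions at starts. Each is the 300-base RefSeq promoter window, from 250 bases before to 50 bases after the start, found once in NCBIM37 (mm9) and read 5′ to 3′ on the strand of the gene. Capitals mark matches to any of 6 promoter motifs on either strand, namely GGGCGG (GC box), CCAAT (bound by NF-Y), CCGGAAG (ETS), AAGATGG (YY1), GCATGCGC (NRF1 half-site, called the NRF1 motif below) and TGACGTCA (CRE). The windows lie at chrX:17739451-17739750 (plus strand) for Kdm6a, chr6:122290196-122290495 (minus strand) for Phc1 and chr6:47544980-47545279 (minus strand) for Ezh2.
Kdm6a: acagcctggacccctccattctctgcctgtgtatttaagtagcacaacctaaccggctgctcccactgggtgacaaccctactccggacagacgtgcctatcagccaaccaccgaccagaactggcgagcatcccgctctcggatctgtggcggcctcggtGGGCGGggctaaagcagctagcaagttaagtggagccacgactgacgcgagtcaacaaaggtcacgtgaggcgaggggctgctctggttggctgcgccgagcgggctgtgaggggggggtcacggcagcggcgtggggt
Phc1: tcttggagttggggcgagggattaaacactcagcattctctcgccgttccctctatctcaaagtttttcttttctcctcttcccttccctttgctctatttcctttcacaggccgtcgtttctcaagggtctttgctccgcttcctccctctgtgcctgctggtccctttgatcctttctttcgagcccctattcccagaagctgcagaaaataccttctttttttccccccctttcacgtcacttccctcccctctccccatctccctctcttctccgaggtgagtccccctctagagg
Ezh2: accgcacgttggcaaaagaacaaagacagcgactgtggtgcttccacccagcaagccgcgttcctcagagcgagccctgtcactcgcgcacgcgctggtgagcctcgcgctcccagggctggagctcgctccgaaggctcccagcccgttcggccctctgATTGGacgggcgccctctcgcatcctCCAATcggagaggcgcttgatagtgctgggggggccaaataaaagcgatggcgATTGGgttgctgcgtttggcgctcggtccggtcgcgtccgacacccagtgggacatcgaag

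The 3 windows differed in composition. Ezh2 had 31 CpG dinucleotides and a GC content of 64.3%, Kdm6a had 21 and 63.0%, and Phc1 had 9 and 52.0%. The Ezh2 window held 3 CCAAT matches and the Kdm6a window 1 GC box match, and the Phc1 window held none of the 6 motifs. Among all 32851 promoter windows of the RefSeq table, 37.4% held CCAAT, 35.7% the GC box, 8.86% the ETS motif, 6.34% the YY1 motif, 2.71% the NRF1 motif and 1.79% the CRE.

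Of the 9 deacetylase genes, 7 had a region, beside 49.3% of coding genes, and each of the 7 had 1 region at the assigned start. Among class I enzymes, Hdac1 and Hdac3 had regions of 942 and 1082 bp centered 121 and 16 bp upstream, and Hdac8 had none. A region of the gene Rell2 also lay within 1 kb of an Hdac3 start. Among class IIa enzymes, which respond to signaling and repress MEF2 factors in muscle, Hdac5 had a region of 1090 bp, and Hdac7 had none. Hdac4 had a region of 1719 bp centered 143 bp upstream of the assigned RefSeq start, but the nearest Hdac4 start in GENCODE was 32091 bp away, so this promoter was present in 1 annotation and not in the other. Hdac6, a cytoplasmic enzyme that deacetylates tubulin, had a region of 1050 bp, 10 bp upstream of its start.

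Hdac2 and Hdac9 were the deacetylase genes with distal regions. Hdac2, a class I enzyme of the NuRD and SIN3 complexes, had a region of 1743 bp, 189 bp downstream of its start. A second region of 1182 bp lay 170690 bp upstream (chr10:36523070-36524251), in an intron of Hs3st5, and another of 558 bp lay 39969 bp downstream (chr10:36734041-36734598) between genes. Hdac9, a class IIa enzyme, had a region of 1278 bp, 9 bp from its start, which held 1.017 CpG per 100 bp, the lowest of the member regions at starts. Its other regions were 634 bp wide, 58482 bp upstream and intergenic (chr12:35271920-35272553), and 769 bp wide, 223325 bp downstream in an intron of the gene itself (chr12:34990045-34990813). In width, the distal regions of Hdac9 and the downstream region of Hdac2 were low for their class, each wider than at most 22.1% of regions beyond 1 kb, and the upstream Hdac2 region was wider than 77.5%.

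The genes for DNA methylation had 13 regions over 5 of 6 members, beside 49.3% of coding genes with a region, and Tet2 alone held 6 of the 13. A region beyond 1 kb of the assigned start was listed for 4 of the 6, beside 18.7% of coding genes. Dnmt1, which copies methylation after replication, had a region of 1233 bp, 50 bp upstream of its start, and one of 682 bp, 8695 bp downstream in an intron. Dnmt3a, a de novo methyltransferase, had no region at a start. Its regions were 1855 bp wide at 25924 bp upstream, in an intron of Dtnb (chr12:3780129-3781983), and 1021 bp wide at 15020 bp upstream, between genes (chr12:3791450-3792470). The first was wider than 96.3% of regions beyond 1 kb. A pair of further regions inside the Dnmt3a gene body were assigned to the antisense transcript Dnmt3aos. They were 583 bp (chr12:3843207-3843789) and 1283 bp wide (chr12:3870729-3872011), and the second lay 4538 bp from the nearest Dnmt3a start. Dnmt3b had no region.

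The 3 TET genes, whose products oxidize methylcytosine, all had regions. Tet3 had 1 region of 1784 bp, 86 bp upstream of the assigned RefSeq start and 14800 bp from the nearest Tet3 start in GENCODE. A region of 1163 bp that covered a GENCODE start of Tet3 was assigned to B230319C09Rik. Tet1 had no region within 1 kb of its assigned start. Its wider region, of 2184 bp (chr10:62348460-62350643), lay 6789 bp upstream in an intron of the Tet1 model of GENCODE, held no annotated Tet1 start and was wider than 98.1% of regions beyond 1 kb. The other, of 1035 bp (chr10:62327766-62328800), lay 14479 bp downstream and covered a Tet1 start, 231 bp from its center.

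Tet2 had 6 regions, the most among members, a number reached by 0.666% of coding genes. The region at the start was 1871 bp wide and centered 204 bp upstream, and it covered an annotated start. The other regions upstream were all intergenic, and 3 of the 4 lay 56415 bp (chr3:133263095-133264444, 1350 bp wide), 102370 bp (chr3:133309387-133310062, 676 bp wide) and 332196 bp (chr3:133539012-133540089, 1078 bp wide) from the start. The last region, 986 bp wide, lay 10279 bp downstream in an intron of Tet2 (chr3:133196583-133197568). The regions thus spanned 342.5 kb. The region at 56415 bp was wider than 87.5% of regions beyond 1 kb and the one at 102370 bp was wider than 10.9%.

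**Figure D2:**
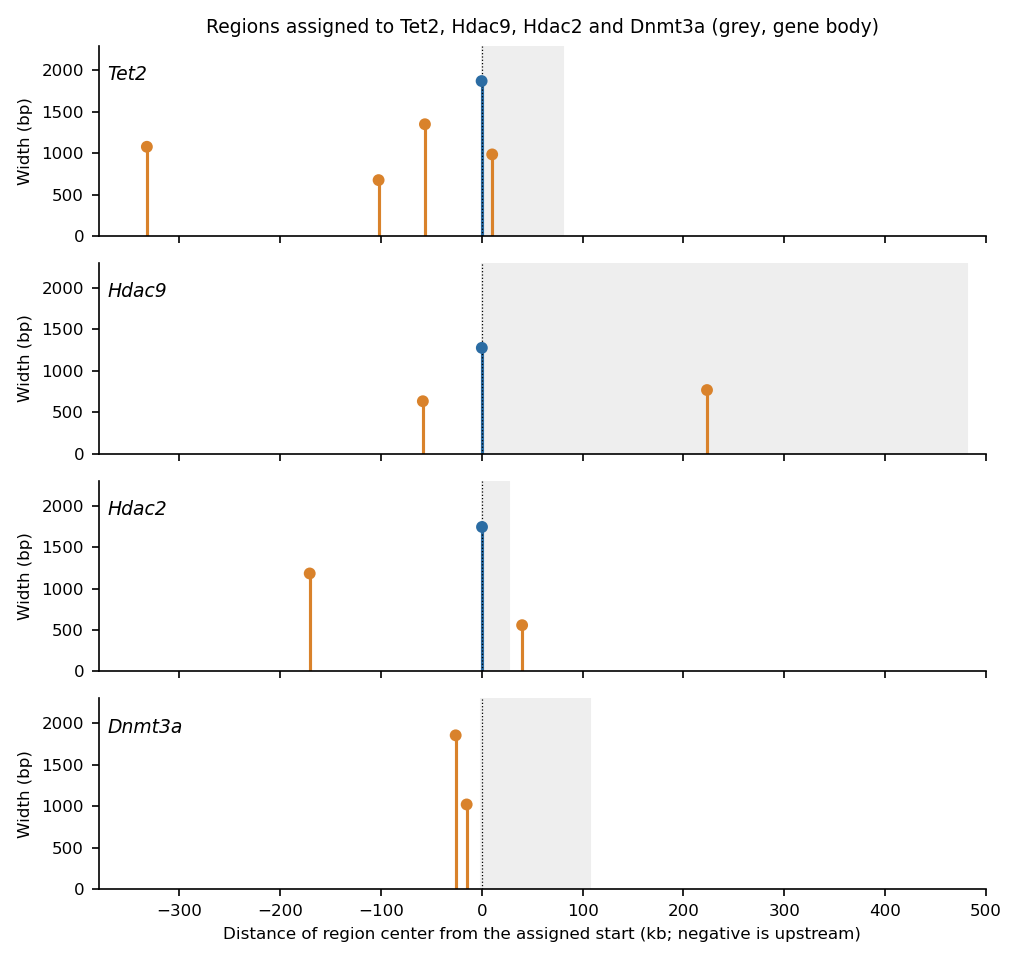
Width in bp (y axis) of the regions assigned to Tet2 (1 left out), Hdac9, Hdac2 and Dnmt3a against the distance of its center from the assigned start in kb (x axis), with the gene body in grey and blue marking centers within 1 kb of the start. Tet2 has 3 plotted regions upstream of its start region, Hdac9 has 1 region far inside the gene body, and Dnmt3a has no blue point.

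Region counts are set here beside the distance between neighboring coding starts, and whether that distance accounts for the counts was not tested. For Tet2, the nearest starts of other coding genes on its sides lay 926710 bp apart. Among the 928 coding genes with a span at least as large, 85.7% had a region, those with a region had a median of 2, and 10.5% had 6 or more. For Hdac9 and Hdac2, with spans of 916989 and 632112 bp, 41.2% and 33.8% of coding genes with a span at least as large had 3 or more regions. Jarid2, with 1217033 bp and 2 regions, and Hdac4, with 672399 bp and 1 region, had few for their spans, since 66.0% and 83.6% of such genes had as many or more. Members lay in larger spans than coding genes in general, the medians being 120489 and 94188 bp.

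The central 300 bases of the widest distal region are given for Dnmt3a, Hdac2, Hdac9 and Tet1, which had 2 regions beyond 1 kb each, to show the sequence of regions away from the assigned start. Tet2, which had 5 of the 20 such regions, is not among them. They are read on the plus strand of NCBIM37. Capitals mark matches on either strand to AGATAA (for factors of the GATA family), TAATTA (a paired homeodomain site), CTAATG (a single homeodomain site), GGAATG (TEAD), CATCTG (HAND or TWIST E-box), ACAAAG (SOX), CTATTTATA (MEF2) or TGACTCA (AP-1), and the homeodomain motifs can share bases. The stretches lie at chr12:3780907-3781206 for Dnmt3a, chr10:36523511-36523810 for Hdac2, chr12:34990280-34990579 for Hdac9 and chr10:62349402-62349701 for Tet1.
Dnmt3a: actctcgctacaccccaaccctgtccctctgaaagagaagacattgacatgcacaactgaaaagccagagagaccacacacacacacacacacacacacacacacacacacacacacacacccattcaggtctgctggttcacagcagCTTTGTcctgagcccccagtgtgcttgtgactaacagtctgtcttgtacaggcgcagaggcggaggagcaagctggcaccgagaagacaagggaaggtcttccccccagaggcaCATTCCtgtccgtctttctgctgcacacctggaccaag
Hdac2: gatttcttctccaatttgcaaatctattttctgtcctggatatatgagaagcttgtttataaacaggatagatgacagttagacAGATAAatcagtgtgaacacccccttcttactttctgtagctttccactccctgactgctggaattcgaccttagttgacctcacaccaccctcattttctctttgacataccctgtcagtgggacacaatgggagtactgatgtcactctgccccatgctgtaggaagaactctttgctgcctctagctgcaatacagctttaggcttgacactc
Hdac9: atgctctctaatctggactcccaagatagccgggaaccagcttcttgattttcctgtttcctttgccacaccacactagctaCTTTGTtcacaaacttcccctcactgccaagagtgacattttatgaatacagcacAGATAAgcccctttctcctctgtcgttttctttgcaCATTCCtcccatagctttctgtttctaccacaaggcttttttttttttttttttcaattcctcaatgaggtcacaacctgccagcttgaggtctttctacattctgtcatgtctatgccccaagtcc
Tet1: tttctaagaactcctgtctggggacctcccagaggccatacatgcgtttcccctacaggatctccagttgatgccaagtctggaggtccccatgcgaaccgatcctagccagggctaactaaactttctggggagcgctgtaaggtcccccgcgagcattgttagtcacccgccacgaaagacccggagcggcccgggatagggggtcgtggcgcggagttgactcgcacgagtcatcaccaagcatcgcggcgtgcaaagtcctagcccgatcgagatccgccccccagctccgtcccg

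The Tet1 stretch stood apart from the other 3, with 24 CpG dinucleotides and 61.0% GC, compared with 5 in Dnmt3a, 2 in Hdac9 and 1 in Hdac2. It held none of the 8 motifs. The Hdac9 stretch held GATA, SOX and TEAD matches, the Dnmt3a stretch SOX and TEAD and the Hdac2 stretch GATA.

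Over all 20 member regions beyond 1 kb, the central 300 bp held the SOX motif in 6 (30.0%, compared with 33.8% of the 8081 regions of that class), TEAD in 5 (25.0%, compared with 22.2%), GATA in 2 (10.0%, compared with 14.5%) and the paired homeodomain motif in 2 (10.0%, compared with 8.11%). The single homeodomain motif and the E-box were each in 1 region (5.0%, compared with 11.2% and 21.8%), and MEF2 and AP-1 were in none (compared with 0.161% and 5.49%). Over whole regions the SOX motif was found in 11 of the 20 (55.0%, compared with 66.3%), GATA in 9 (45.0%, compared with 42.2%), TEAD in 8 (40.0%, compared with 49.5%), the E-box in 8 (40.0%, compared with 53.4%) and MEF2 in 1 (5.0%, compared with 0.681%). The paired and single homeodomain motifs were each in 6 (30.0%, compared with 25.5% and 31.9%). The AP-1 motif was found over whole regions in 8 of the 20 (40.0%, compared with 16.3%), at 3 distal regions of Tet2 and at regions of Dnmt3a, Jarid2, Pcgf5, Phc2 and Tet1, and the nearest of these matches was 246 bp from a region's center. The Jarid2 and Pcgf5 regions among them covered an annotated start of their own gene. Those of Tet1 (2184 bp) and Dnmt3a (1855 bp) were the widest of the 20, so the whole-region search read more sequence in them. In the 26 regions at starts, the central 300 bp held the GC box in 22 (84.6%, compared with 69.2% of 9083 regions), CCAAT in 9 (34.6%, compared with 31.8%), the NRF1 motif in 3 (11.5%, compared with 4.03%), the ETS motif in 1 (3.85%, compared with 16.2%), the YY1 motif in 1 (3.85%, compared with 6.89%) and the CRE in none (compared with 2.73%). Over whole regions at starts, the GC box was in 25 (96.2%, compared with 89.9%), CCAAT in 18 (69.2%, compared with 76.9%), the YY1 motif in 11 (42.3%, compared with 23.2%), the ETS motif in 5 (19.2%, compared with 33.0%), the NRF1 motif in 5 (19.2%, compared with 8.8%) and the CRE in 2 (7.69%, compared with 5.43%). In the Dnmt1 region at its start, 4 matches to the NRF1 motif were counted over both strands, and matches on opposite strands can share bases. These are matches of letters in windows of unequal base content and say nothing of binding.

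The widths of member regions largely overlapped those of their class. Within 1 kb of the assigned start the median width was 1457 bp over 26 regions, compared with 1294 bp over 9083 regions, and 14 of the 26 (53.8%) were wider than that median. Beyond 1 kb the median was 1028 bp over 20 regions, compared with 950 bp over 8081 regions, and 13 of the 20 (65.0%) were wider. The spread among members was much larger than these differences, from 821 to 3214 bp at starts and from 558 to 2184 bp beyond. The lower quartiles were close, at 1091 and 1084 bp for member and all regions at starts and at 768 and 790 bp beyond 1 kb. In the class at starts, 11.5% of member regions and 9.97% of all regions were 2000 bp or wider.

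**Figure D3:**
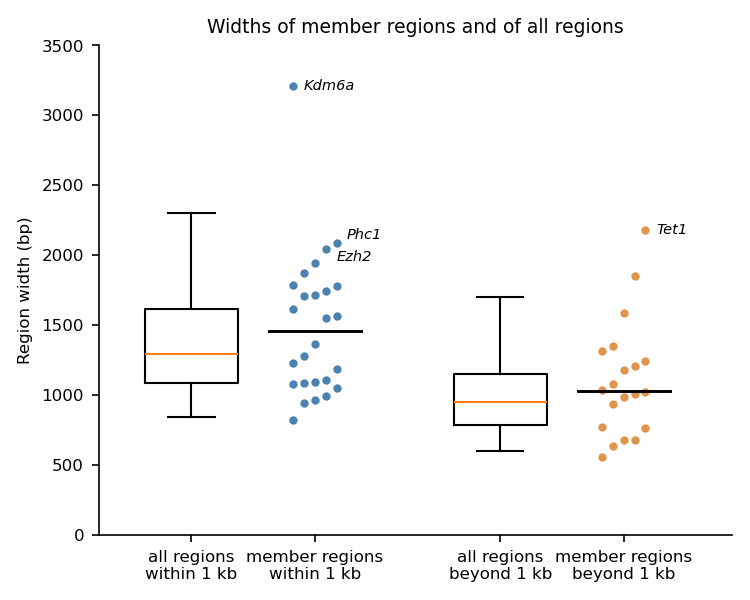
Region width in bp for all regions (boxes, median and quartiles, whiskers at the 5th and 95th percentiles) and for member regions (points, black line at the median), by distance of the center from the assigned start. Most points lie within the whiskers of their class, and Kdm6a at 3214 bp, Tet1 at 2184 bp and Dnmt3a at 1855 bp lie above them.

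Member regions at starts were richer in CpG than all regions at starts, with medians of 7.906 and 5.935 CpG per 100 bp, and their median GC content was 62.2% compared with 58.14%. Beyond 1 kb the medians were 1.55 and 1.35 CpG per 100 bp. The highest distal value, 10.83 CpG per 100 bp, was at Pcgf5, where the region covers an annotated start. Of the 20 member regions beyond 1 kb, 4 covered a start of their own gene in GENCODE (Jarid2, Phf19, Pcgf5 and Tet1), 7 had their midpoint in an intron, 7 were intergenic, 1 was in an exon and the Phc1 region lay near a start of another gene. Downstream of the assigned start lay 9 of the 20, and 11 lay upstream.

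The starts of the members were rich in CpG dinucleotides, a feature of promoters that are used in many tissues. Within 500 bp of the CpG-richest start of each gene, the median was 8.841 CpG per 100 bp over the 44 members and 5.095 over 20452 coding genes, and 37 of the 44 lay above the coding median. A region within 1 kb of an annotated GENCODE start, whatever gene it was assigned to, was found for 28 members (63.6%) and 47.9% of coding genes. Above the coding median, such a region was found for 25 of 37 members (67.6%) and 73.2% of coding genes. Within that class the share of members was thus below that of coding genes, while over all genes it was above. Of the 7 members at or below the median, Hdac3, Hdac9 and Tet1 had such a region and Kdm6b, Hdac4, Hdac8 and Smyd1 had none, the Hdac4 region being at a start that GENCODE lacks. Smyd1, a methyltransferase of striated muscle, had 1.499 CpG per 100 bp at its richest start.

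**Figure D4:**
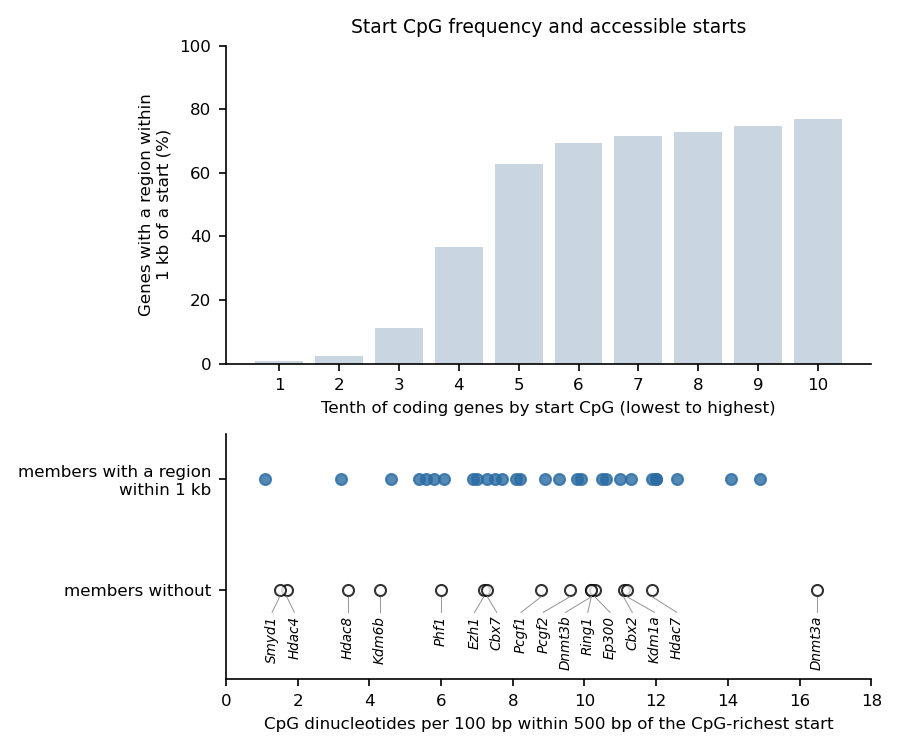
Top, share of coding genes (%) with a region within 1 kb of an annotated start, by decile of CpG frequency at the start. Bottom, CpG per 100 bp at the richest start of each member, in a row for the 28 members with such a region (filled) and a row for the 16 without (open), which are the 13 members without an assigned region and Kdm6b, Hdac4 and Dnmt3a. The bars rise from 0.733% to 77.0%, and most members without a region lie at CpG values where most coding genes have one.

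The 13 members without an assigned region were Ezh1, Phf1, Ring1, Pcgf1, Pcgf2, Cbx2, Cbx7, Kdm1a, Ep300, Hdac7, Hdac8, Dnmt3b and Smyd1. None of them had a region of any gene within 1 kb of an annotated start. Their median start CpG was 9.59 per 100 bp, compared with 8.192 for the members with a region, and 11 of the 13 lay above the coding median. The region nearest to a start was 1755 bp away for Pcgf2 (assigned to Psmb3), 5897 bp for Phf1 (Cuta) and 8263 bp for Smyd1 (Mir8112). The Smyd1 model of GENCODE held 2 regions inside the gene body, that one (chr6:71220538-71222371) and one assigned to Fabp1 (chr6:71176873-71177936). It was 16840 bp away for Cbx2 (Cbx8), 21795 bp for Ezh1 (Plekhh3), 23038 bp for Pcgf1 (Htra2) and 39187 bp for Dnmt3b (Commd7). For the remaining genes it was 61608 bp away for Ep300 (Rbx1), 71907 bp for Ring1 (B3galt4), 82090 bp for Kdm1a (Luzp1), 88311 bp for Hdac7 (Rpap3), 97707 bp for Cbx7 (Cbx6) and 252316 bp for Hdac8 (Cited1).

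For some of these genes, neighboring CpG-rich starts had no region either. Ring1, whose product is a RING ligase of PRC1, lay in a stretch of 166848 bp without a region that held 8 other coding starts, of which 6 were above the coding median of CpG. Ezh1 lay in one of 161463 bp with 10 other coding starts, 5 of them CpG-rich, and Pcgf2 in one of 273355 bp with 5, of which 4 were CpG-rich. Between the flanking regions, 8 of the 13 had at least 1 other CpG-rich coding start, and Phf1, Cbx2, Ep300, Dnmt3b and Smyd1 had 0. Counting only genes whose own outermost start was CpG-rich, this was the case for 5 of 9 members (55.6%), close to the 53.1% of all 2581 such coding starts without a region. Over the genome, 27.4% of 9428 CpG-rich coding starts, taken as the outermost start of each gene, had no region within 1 kb, and the longest run of such starts in a row was 12. Ring1 lay in a run of 11, and 5 runs over the genome had 10 or more. A run is counted by starts and not between flanking regions, so it can hold more starts than the stretch without a region. Dnmt3b, with 0 other CpG-rich starts in its stretch, lay in a run of 3. No signal was available at these starts, so closed chromatin and a region missed at this depth cannot be told apart.

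A wider set of 70 chromatin modifier genes, chosen with earlier results of these data known, was described in the same way. Of these, 55 (78.6%) had an assigned region, beside the same 49.3% of coding genes, 47 (67.1%, beside 40.6% of coding genes) had one within 1 kb of the assigned start and 12 (17.1%, beside 15.2%) had one beyond 10 kb. Of the 57 above the coding median of start CpG, 45 (78.9%) had a region within 1 kb of an annotated start, beside 73.2% of such coding genes and 67.6% of such members. All 16 Polycomb partner genes had a region, and 16 of the 23 PRC1 and PRC2 members had one. Within 1 kb of the assigned start, a region was listed for 12 of the 16 partners, 5 of 8 PRC2 members and 9 of 15 PRC1 members. Of the partners without one there, Bcorl1, Auts2 and Bap1 had a region within 1 kb of an annotated start, and Bcor had none. By annotated starts, 6 PRC2 and 10 PRC1 members had such a region. Rybp, which replaces CBX subunits in variant PRC1, Aebp2, a cofactor of PRC2, and Auts2, a subunit of a PRC1 variant, had 6 regions each, 5 of them beyond 10 kb in each gene, and Auts2 had none within 1 kb of the assigned start. Of the other groups, 12 of 16 histone methyltransferases, 9 of 10 demethylases, 5 of 7 acetyltransferases, 7 of 9 other deacetylases, 4 of 8 genes for DNA methylation readers and partners and 2 of 4 SMYD genes had a region. The 15 without were Kmt2b, Kmt2d, Ash1l, Ehmt2, Kdm3b, Kat2a, Kat5, Sirt2, Sirt7, Dnmt3l, Mbd1, Mbd3, Mbd4, Smyd4 and Smyd5, and a region of another gene lay within 1 kb of a start of Sirt2 and of Smyd4.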

How the data were processed

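ATAC-Seq libraries of the 3 genotypes were grouped by their labels. The paper's methods state that the authors mapped reads to mm9 with bowtie2, removed duplicates with Picard 1.136, called peaks per library with MACS14, removed blacklisted regions, and kept those shared by the replicates (bedtools 2.15, overlap of 1 bp or more). The authors deposited each region's start, end and the distance in bp between its center and the start of a gene. The rule that assigned genes is not given in the sources used here for these regions. No column was left unmapped (0 columns). Requiring a region in each library favors strong sites, and widths include the extension of tags and rise with depth.

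The list held 17432 rows, and repeated rows were counted once (17164 distinct regions). Members, gene lists and motifs were chosen with earlier results of these data known. All 44 members were accounted for, and those with 3 or more regions, a region of at least 2000 bp or one beyond 10 kb were described in full. Sequence, CpG and gene structure were read from NCBIM37, which is the mm9 assembly, and its GENCODE annotation. Each region was placed by its midpoint: near a start (1 kb), else in an exon, an intron or between genes. Gene names came from the GRCm38.p6 RefSeq table, in which 11161 of 11541 transcripts were matched by accession, 359 by symbol, 15 by synonym and 6 not at all. Promoter windows are from RefSeq, and 39 of the 44 members had one. Motifs were searched on both strands. The position and sequence of 1 Tet2 region are not reported here, and it stays in the counts. No test was run, as there was 1 list and no value per library. The motif search was tested on simulated sequence with planted motifs, and base composition on a made-up sequence. Counts by distance and the median width were checked on a simulated table with planted regions. Reading of the region list, gene placement, spans and runs were not tested in this way. Python 3.11.15, numpy 2.4.6, pandas 2.3.3 and matplotlib 3.10.9 were used. Alternatives were the wider regions only, other distance limits and starts, joined regions, another background, means, other CpG windows and whole-region motif searches.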

Additional observations from a re-analysis of the deposited data

How the results depend on the processing

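No paired analysis was possible because the control group had 1 common list and no value per library, and for the same reason no replicate could be left out. Of 21 alternative values of the main results, 16 stayed within 1.5 times the count or 10% of the median. With regions at least as wide as the list median, 22 of the 31 members still had a region, the members with a region beyond 1 kb fell to 7 from 12, the member regions to 25 from 46, and the share of coding genes to 32.6% from 49.3%. With predicted and receptor genes left out, the share of coding genes was 54.5%. With GENCODE starts counted beside the assigned one, 29 members had a region centered within 1 kb and 9 had one beyond 1 kb of each. The median start CpG of members was 11.1 per 100 bp within 250 bp of the start and 6.10 within 1000 bp, beside 8.84. Searching whole regions in place of their central 300 bp raised all 8 distal motif counts by over 1.5 times, and the whole region contains the center. Depth, library variation and mutant genotypes were not analysed here, and widths cannot be compared as signal.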
